A study of Mus musculus with 6 samples.

Results

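The genes described here encode the MCM helicase, the other proteins of the replication fork and enzymes that supply DNA synthesis. They were 35 genes chosen by name, and each was represented by its brightest probe set among those annotated to that 1 symbol. Of the 35, 34 had such a probe set and all 34 were bright enough to be tested, out of 18193 genes with a probe set of 1 symbol and 14185 tested. Chaf1a was not analysed here. The samples were mouse embryonic stem cells, derived from E14TG2a of 129P2 background, after 2 days in N2B27, a serum-free medium that lets them turn to neural fate. All cells carried a doxycycline-inducible hairpin (shRNAmir) against Gmnn, the gene of Geminin. In each of 3 experiments a culture induced with 500 ng of Dox, volume not given (GemKD), was set beside an uninduced culture with the same hairpin and no Dox (control). The hairpin was shRNAmir #11 in experiments 1 and 3 and shRNAmir #9 in experiment 2, and whether the lines are single clones is not given here. Every GemKD culture, but no control culture, received Dox, so the knockdown and the agent cannot be told apart. Each culture was measured on 1 Affymetrix Mouse Genome 430 2.0 array, 6 in all. Values are probe set signals as deposited, differences are on the scale of log2(signal + 16), and a gene is said to be called where the Benjamini-Hochberg adjusted p over all genes tested was under 0.05 in limma.

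Replication origins are licensed when the origin recognition complex, Cdc6 and Cdt1 load the ring of Mcm2 to Mcm7 onto DNA. Geminin binds Cdt1 after licensing has ended and so keeps origins from being loaded again in the same cycle. The kinase Cdc7 with its activator Dbf4 then fires the loaded helicase, which works with Cdc45 and the GINS proteins, and the polymerases, the clamp and the ligase copy the DNA behind it. Many of these genes are transcribed together as cells enter S phase, by E2F factors that bind short GC-rich sites close to the start of transcription.

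Because the genes are known for such shared control, their promoter windows are shown first. RefSeq windows of 300 bases (250 before and 50 after a transcription start, GRCm38.p6) were at hand for 28 of the 35 genes, 33 windows in all. An E2F-type motif (TTTCCCGC, TTTCGCGC, TTTGCCGC or TTTGGCGC on either strand) was found in 9 of the 33 windows (27.3%) and in 744 of all 32851 windows of the table (2.26%). The CCAAT box, bound by the factor NF-Y and searched as CCAAT on both strands, was in 19 of the 33 (57.6%) and in 37.4% of all windows. Both kinds were in 7 windows (21.2%, against 0.96% of all), and they shared a base in 1, that of Mcm7. The 7 windows below are those of helicase subunits with an E2F-type match, of Pold1 and Lig1, whose signals differed most between experiments among genes with a match, and of Rfc3, which had the largest GemKD difference. Capitals mark the E2F-type matches, adjoining ones merged, and each window reads 5′ to 3′ on the strand of its gene. They lie at chr1:20820263-20820562 (minus strand, Mcm3), chr8:75109259-75109558 (plus strand, Mcm5), chr1:128359656-128359955 (minus strand, Mcm6), chr5:138171834-138172133 (minus strand, Mcm7), chr7:13278576-13278875 (plus strand, Lig1), chr7:44548766-44549065 (minus strand, Pold1) and chr5:151651159-151651458 (minus strand, Rfc3).
Mcm3: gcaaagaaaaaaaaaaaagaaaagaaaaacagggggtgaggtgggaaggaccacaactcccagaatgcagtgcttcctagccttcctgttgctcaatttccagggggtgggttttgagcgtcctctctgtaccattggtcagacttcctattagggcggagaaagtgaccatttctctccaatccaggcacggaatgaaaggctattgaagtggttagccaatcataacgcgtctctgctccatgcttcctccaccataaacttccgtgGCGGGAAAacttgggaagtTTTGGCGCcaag
Mcm5: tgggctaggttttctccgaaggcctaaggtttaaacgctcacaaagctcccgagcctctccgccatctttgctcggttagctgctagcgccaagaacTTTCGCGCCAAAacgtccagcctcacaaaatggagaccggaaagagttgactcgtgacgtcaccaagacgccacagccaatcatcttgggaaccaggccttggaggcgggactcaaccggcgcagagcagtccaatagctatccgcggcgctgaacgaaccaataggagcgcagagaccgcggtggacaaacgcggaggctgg
Mcm6: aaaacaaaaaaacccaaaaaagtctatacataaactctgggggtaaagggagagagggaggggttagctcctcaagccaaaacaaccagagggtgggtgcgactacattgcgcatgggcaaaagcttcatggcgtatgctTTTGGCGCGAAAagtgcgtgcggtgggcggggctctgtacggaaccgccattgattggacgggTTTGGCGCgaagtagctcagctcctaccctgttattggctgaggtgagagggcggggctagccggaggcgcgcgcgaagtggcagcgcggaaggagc
Mcm7: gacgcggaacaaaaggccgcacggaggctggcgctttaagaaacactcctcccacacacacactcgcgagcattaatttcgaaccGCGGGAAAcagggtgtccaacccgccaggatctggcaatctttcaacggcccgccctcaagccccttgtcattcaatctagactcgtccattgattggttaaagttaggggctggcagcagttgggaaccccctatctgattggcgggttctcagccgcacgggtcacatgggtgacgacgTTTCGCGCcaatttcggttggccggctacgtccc
Lig1: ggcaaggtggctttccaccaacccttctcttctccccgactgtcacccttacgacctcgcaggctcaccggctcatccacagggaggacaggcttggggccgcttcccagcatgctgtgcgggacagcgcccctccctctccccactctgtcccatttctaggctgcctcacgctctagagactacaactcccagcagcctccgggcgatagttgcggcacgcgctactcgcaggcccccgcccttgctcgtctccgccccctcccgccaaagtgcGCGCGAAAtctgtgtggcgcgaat
Pold1: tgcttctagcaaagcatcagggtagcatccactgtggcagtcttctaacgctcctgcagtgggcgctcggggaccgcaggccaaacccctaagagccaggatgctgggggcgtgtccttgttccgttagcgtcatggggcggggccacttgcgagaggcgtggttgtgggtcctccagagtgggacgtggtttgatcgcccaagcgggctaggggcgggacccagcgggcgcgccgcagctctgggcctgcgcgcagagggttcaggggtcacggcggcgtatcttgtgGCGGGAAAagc
Rfc3: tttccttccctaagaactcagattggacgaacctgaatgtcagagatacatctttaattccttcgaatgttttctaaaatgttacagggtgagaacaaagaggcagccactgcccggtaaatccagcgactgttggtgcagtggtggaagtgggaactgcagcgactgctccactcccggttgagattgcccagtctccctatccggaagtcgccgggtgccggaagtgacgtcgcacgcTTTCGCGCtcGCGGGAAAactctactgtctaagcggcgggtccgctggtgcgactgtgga
In the Mcm6 window 2 sites stood at bases 141 to 152 and 204 to 211, and in that of Rfc3 they stood at bases 241 to 248 and 251 to 258, on either side of the start. The windows of Mcm2, Pcna, Rrm2 and Rpa1 had a CCAAT box and no E2F-type match. A match is a string of letters in this window and shows no binding.

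The target of the hairpins had a lower signal in GemKD than in its control in every experiment. Gmnn, in the controls of experiments 1, 2 and 3, had signals of 3558, 3477 and 3463, and in GemKD 983, 1669 and 1270, which left 27.6%, 48.0% and 36.7% of the control. The groups did not overlap (exact two-sided permutation p = 0.1, the smallest that 3 against 3 allow). The log2 difference of Gmnn was -1.44 (SE 0.17), with a limma adjusted p of 0.338 in the fit without a block and 2.76e-06 where experiment was the block. Median signals of the arrays were between 59.3 and 60.9, and precision is limited by their number. Neural progenitor markers were detected but differed between experiments in both directions. Sox1 was at 2108 to 2443 in experiments 1 and 2 and at 523 to 577 in experiment 3, while Sox3 was at 959 to 1237 and at 1315 and 1428. The pluripotency factor Pou5f1 was at 7338 to 7711 on every array. Of the 6 neuron markers, Dcx lay under the limit for testing.

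The first comparison asks whether lowering Geminin for 2 days changed the mRNA of the replication machinery. No member was called. The 34 log2 differences lay between -0.06 (Gins3) and 0.29 (Rfc3), with 17 above and 17 below 0 and a median of -0.0002, beside 0.002 over all genes tested. The median within experiments 1, 2 and 3 was 0.002, -0.03 and 0.03. In limma 0 of 34 members were called, with an adjusted p of 0.9998 for Rfc3, and 1, Rfc3, had an unadjusted p under 0.05. Of all genes tested 0.00705% were called (1 gene) and 0.867% had an unadjusted p under 0.05. With the experiment as a block 0 members were called as well (0.0352% of all genes), again with Rfc3 alone under an unadjusted 0.05 (4.76% of all genes, adjusted p = 0.377). Gmnn, the target of the hairpins, was called in this fit (limma adjusted p = 2.76e-06) and not in that without the block (0.338). No other tool was run across genes.

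For the brightest probe sets, with the spread modelled on signal intensity, the size of change that the arrays leave room for was small. Intervals without that model of the spread were not compared. The 95% interval of the GemKD difference lay within 1.5-fold for 34 of 34 members without and with the block, where 75.2% and 91.3% of all genes tested did so. The distance from the difference to either end of that interval had a median of 0.18 without and 0.11 with the block, beside 0.35 and 0.21 over all genes. The upper bounds farthest from 0 with the block were those of Rfc3 (0.43) and Tyms (0.38), and the lowest bound was that of Gins3 (-0.26). The probe sets of the members had a median signal of 2366 beside 307 over all genes tested, and the part of brightness in the narrow intervals was not tested.

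**Figure D1:**
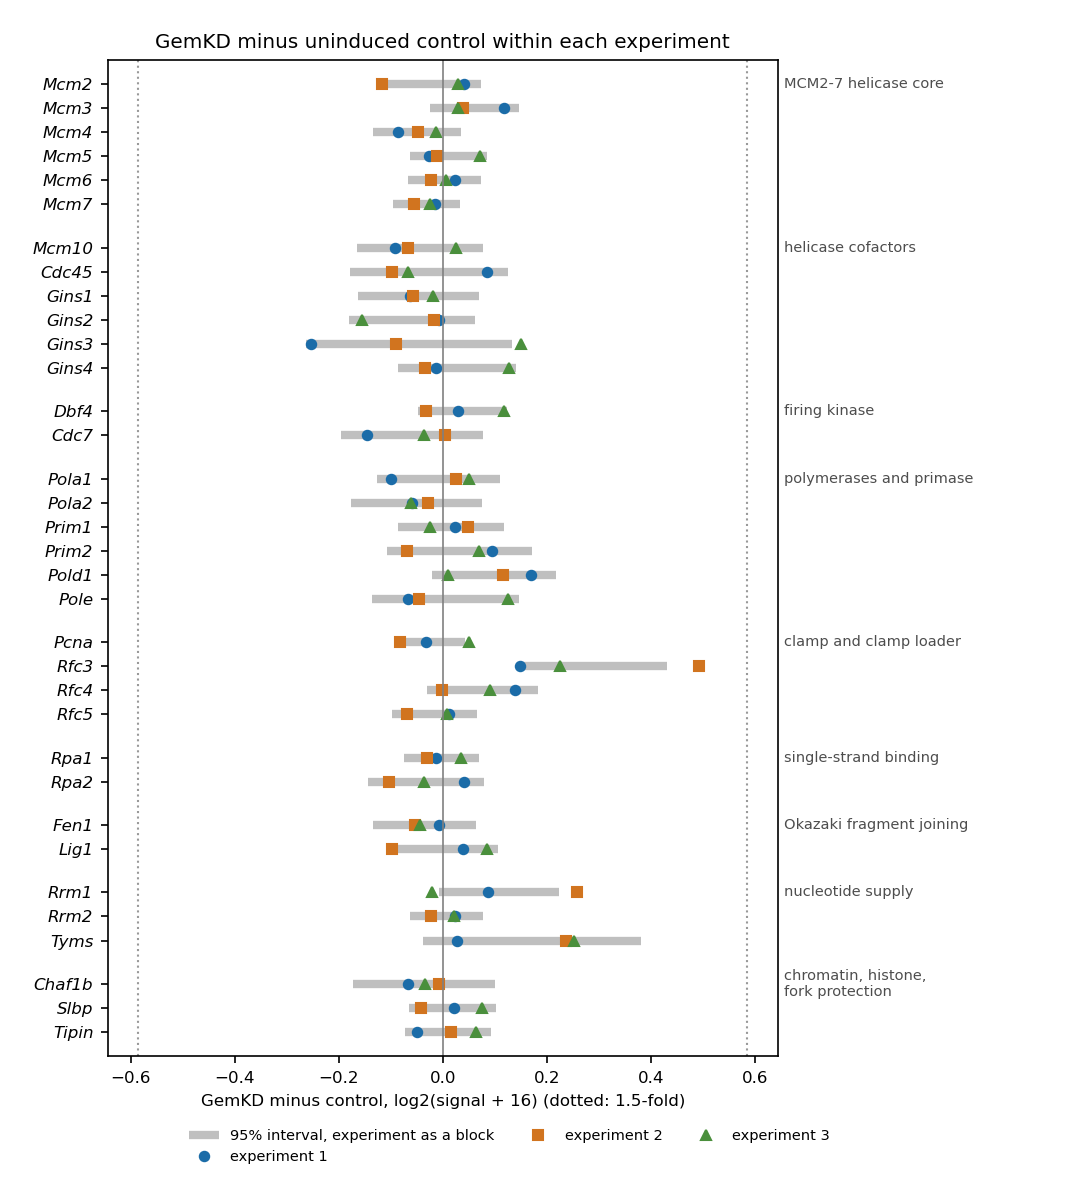
Points are the GemKD minus control differences on the log2(signal + 16) scale within experiments 1, 2 and 3 for the 34 members, grouped by role, and grey bars are the 95% intervals with the experiment as a block. Nearly all points lie close to 0, the bars stay inside the dotted 1.5-fold lines, and Rfc3 stands to the right in all 3 experiments.

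The helicase core stayed close to the controls. Mcm2 to Mcm7, the 6 subunits of the ring that unwinds DNA, had differences between -0.05 (Mcm4) and 0.06 (Mcm3). Their 95% intervals with the block ran from -0.13 to 0.15, which is 1.10-fold lower to 1.11-fold higher. Mcm3 had control signals of 3951, 4161 and 3926 in experiments 1, 2 and 3 and GemKD signals of 4287, 4275 and 4004. Mcm4 had 4188, 3956 and 3836 in the controls and 3943, 3824 and 3801 in GemKD. In each of the 2 genes the GemKD value of an experiment lay on 1 side of its own control, and the arms taken over all experiments overlapped. Mcm5 had control signals of 6425, 6237 and 6182 in experiments 1, 2 and 3 and GemKD signals of 6307, 6188 and 6496. Mcm7 had 7903, 8080 and 7748 in the controls and 7821, 7779 and 7615 in GemKD. The arms overlapped for each of the 6 genes. Mcm4 and Mcm7 were lower and Mcm3 was higher in GemKD within all 3 experiments, by at most 0.12 in each, and the second probe sets of Mcm4 (0.16) and Mcm7 (0.05) pointed the other way.

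The helicase cofactors were likewise close to their controls. Mcm10, which helps to activate the helicase, had -0.04, Cdc45 had -0.03, and Gins1, Gins2, Gins3 and Gins4, the subunits of the GINS ring, had -0.05, -0.06, -0.06 and 0.03. Gins3 differed most within an experiment. Its control signals were 494, 446 and 365 and its GemKD signals 412, 418 and 407, so its 3 ratios were -0.25, -0.09 and 0.15 and went both ways. The firing kinase had 0.04 for Dbf4, the regulatory subunit, and -0.06 for Cdc7, the catalytic one.

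Among the polymerases, the catalytic subunit Pola1 and its partner Pola2 had -0.01 and -0.05, the primase subunits Prim1 and Prim2 had 0.02 and 0.03, and Pole, the leading-strand polymerase, had 0.005. Pold1, the catalytic subunit of the lagging-strand polymerase, had 0.10 (SE 0.15 without and 0.06 with the block). Its ratios were 0.17, 0.11 and 0.01, and its second probe set had 0.05. Of the single-strand binding proteins Rpa1 had -0.003 and Rpa2 -0.03. Fen1, which trims Okazaki fragments, had -0.04, and Lig1, which seals them, had 0.01.

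The clamp loader held the 1 member whose arms did not overlap. Rfc3, a small subunit of the complex that opens the clamp, had control signals of 1559, 1239 and 1595 and GemKD signals of 1730, 1751 and 1866. Each GemKD array was above each control array, and the lowest value was the control of experiment 2. The log2 difference was 0.29 (SE 0.11; 0.07 with the block), 1.22-fold from a mean of 1465 ± 196 to 1782 ± 73.3 (SD, n = 3 each), with ratios of 0.15, 0.49 and 0.22. Without the control array of experiment 2 the difference was 0.17, and as the mean over all probe sets of Rfc3 it was 0.16. All GemKD arrays lay above all controls for 1 of 34 members (2.94%) and 2.09% of all genes tested, and 4.33% of all genes did not overlap in either direction. The second probe set of Rfc3 had control signals of 704, 670 and 789 and GemKD signals of 747, 724 and 739. There the arms overlapped, and the difference was 0.03 (95% interval -0.13 to 0.20 with the block, in a limma fit over all probe sets). The 2 probe sets of Rfc3 thus gave different values, and the larger one was not called. Rfc4 and Rfc5, of the same complex, had 0.08 and -0.02. The clamp itself, Pcna, was among the steadiest members: its controls were at 11099, 11349 and 10771 and its GemKD arrays at 10846, 10712 and 11160.

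Enzymes of nucleotide supply and chromatin proteins of the fork were not called either. Tyms, which makes the thymidine nucleotide, had 0.17 (SE 0.12), with control signals of 236, 219 and 248 and GemKD signals of 241, 261 and 298. Its second probe set had 0.13. Rrm1, the large subunit of ribonucleotide reductase, had 0.11, with ratios of 0.09, 0.26 and -0.02, and the small subunit Rrm2 had 0.01. Rrm2 had the smallest ratio of highest to lowest signal of all members, 1.04, with controls at 6474, 6494 and 6344 and GemKD arrays at 6579, 6392 and 6436. Chaf1b, a subunit of the chromatin assembly factor, had -0.04, the histone mRNA binding protein gene Slbp 0.02 and the fork protection gene Tipin 0.01.

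Direction was shared within all 3 experiments by 11 of 34 members (32.4%, beside 23.9% of all genes tested). Of these, Mcm3, Tyms, Pold1 and Rfc3 were higher (4 of 34, beside 12.2%), and Mcm4, Mcm7, Gins1, Gins2, Chaf1b, Pola2 and Fen1 were lower (7 of 34, beside 11.7%). The values of the 7 lower ones were between -0.06 and -0.03. For 26 members a second probe set was above the limit, and its GemKD difference had the sign of the first in 10 of them.

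**Figure D2:**
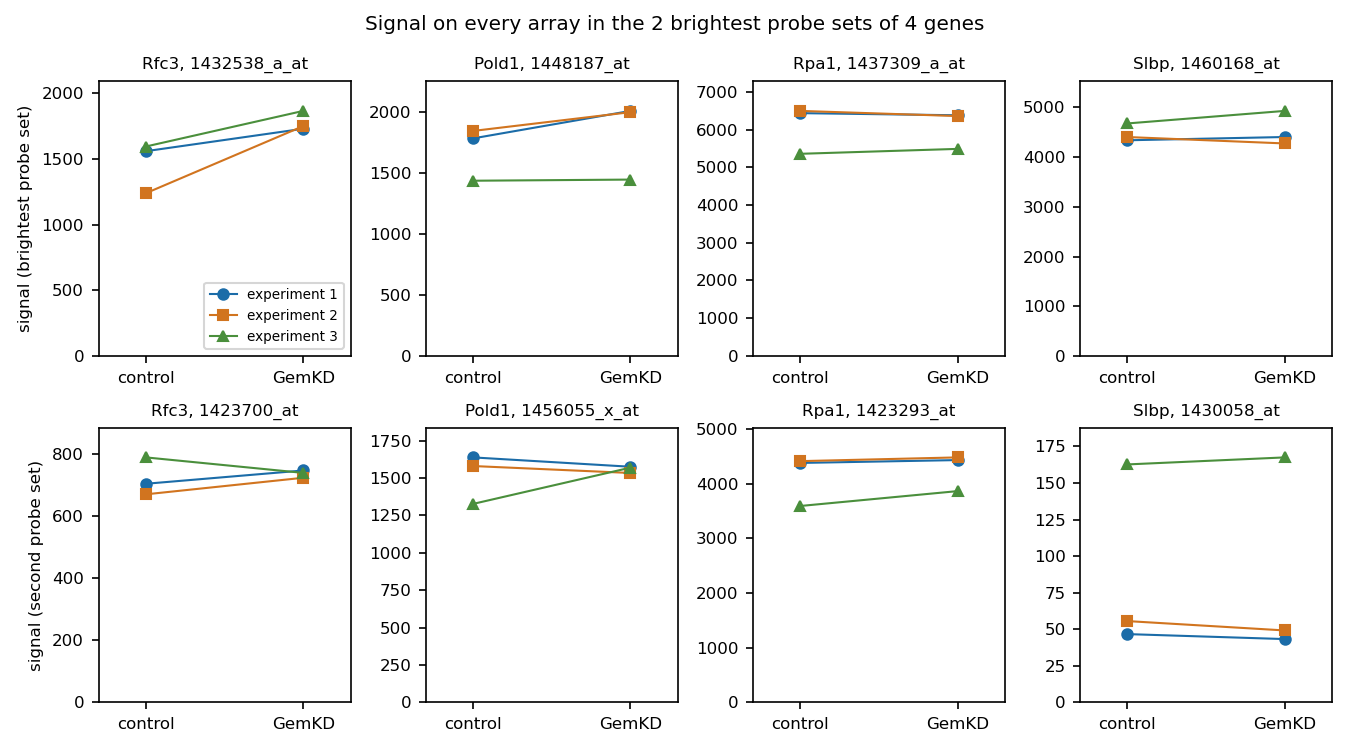
Signal on every array (linear axis from 0) in the 2 brightest probe sets of Rfc3, Pold1, Rpa1 and Slbp, with a line joining control and GemKD of 1 experiment. Rfc3 is higher in GemKD in its brightest probe set, at 1730 to 1866 beside 1239 to 1595, while in the second the arms overlap. Rpa1 is lower in experiment 3 in both.

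The hairpins were compared by the difference between the GemKD effect with shRNAmir #9 (experiment 2) and that with shRNAmir #11 (experiments 1 and 3). No member was called (0 of 34, beside 0.324% of all genes tested), and Rfc3 alone had an unadjusted p under 0.05 (3.67% of all genes). The difference was 0.31 (SE 0.14) for Rfc3, 0.23 (SE 0.12) for Rrm1, -0.16 (SE 0.10) for Lig1 and -0.15 (SE 0.09) for Mcm2, each with an adjusted p of 0.99995 in limma. The second probe set of Rfc3 had 0.11 (SE 0.19) in a fit over all probe sets. That of Rrm1 had ratios of 0.07, -0.05 and 0.14 in experiments 1, 2 and 3, lowest in experiment 2, where the first was highest. That of Mcm2 had 0.12, 0.04 and -0.03, with experiment 2 between the others. In data simulated with known changes this fit called none of the changed genes, but on the arrays it called 46 genes. The simulation therefore does not show what the fit can call here. With 1 experiment of shRNAmir #9, a lack of calls says little about the members. Of the 34 intervals 33 lay within 1.5-fold (46.7% of all genes), the exception being Rfc3. The fit leaves 1 residual degree of freedom before the spread is modelled on signal intensity. These intervals therefore do not show that the hairpins had the same effect.

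More members were called between experiment 3 and either of the others than between arms, where none was called without or with the experiment as a block. Each experiment has 1 array per arm, so the spread in these comparisons is how far the difference between arms varied over the experiments. Culture, line and processing of an experiment cannot be told apart. Between experiments 1 and 2 no member was called in limma (0 of 34, beside 0.106% of all genes), and 1, Rrm1, had an unadjusted p under 0.05 (4.46% of all genes). Experiment 3 differed from experiment 1 in 10 of 34 members (29.4%, beside 28.6% of all genes tested). Of the 34, 9 were lower (26.5%, beside 18.8% of all genes) and 1 was higher (2.94%, beside 9.81%). It differed from experiment 2 also in 10 (29.4%, beside 28.1%), 9 lower (26.5%, beside 18.3%) and 1 higher (2.94%, beside 9.80%). The share of members called in either direction was thus near that of all genes. The 2 comparisons share the arrays of experiment 3. Those called lower against experiment 1 were Mcm2, Mcm6, Cdc45, Pold1, Rpa1, Rfc5, Dbf4, Lig1 and Cdc7, and against experiment 2 the first 8 and Prim2. Cdc7, with 1000 and 975 in experiment 3 and 1117 to 1238 elsewhere, had -0.25 and -0.18 against experiments 1 and 2 (SE 0.08, limma adjusted p = 0.0272 and 0.109). Prim2, with 926 and 972 in experiment 3 and 1050 to 1170 elsewhere, had -0.19 and -0.26 (SE 0.08, limma adjusted p = 0.0896 and 0.0229). Between experiments 1 and 2, which is the difference of the 2 comparisons, Cdc7 had -0.07 (95% interval -0.24 to 0.10) and Prim2 had 0.07 (-0.10 to 0.24), each with a limma adjusted p of 0.9997, so neither gene was called to differ between them. Slbp was the member called higher in each.

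**Figure D3:**
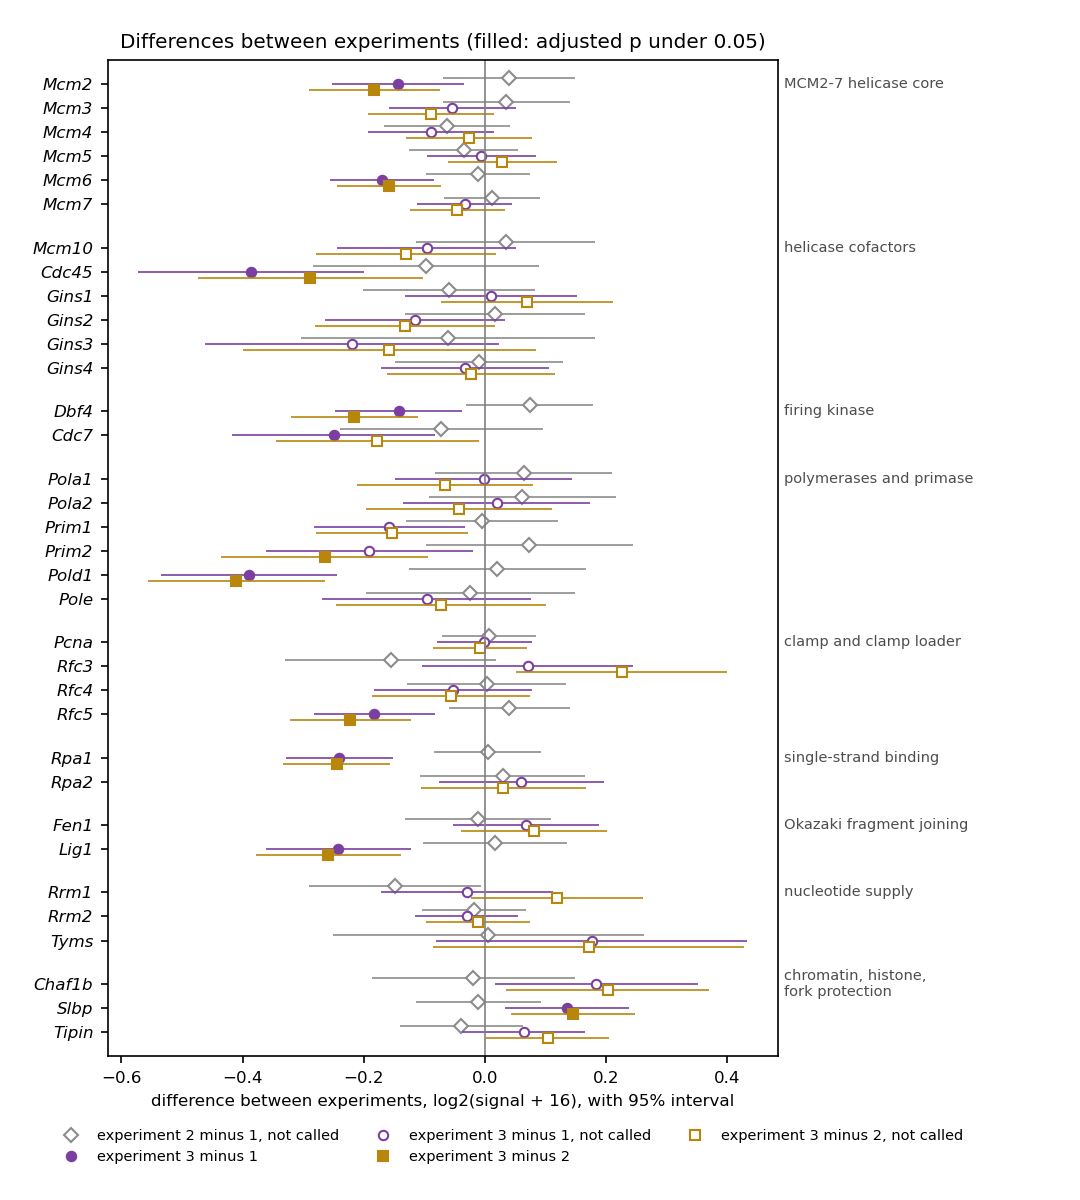
Differences between experiments on the log2(signal + 16) scale with 95% intervals for the 34 members, grouped by role. Filled points, with an adjusted p under 0.05, are found for experiment 3 only, and the largest are Pold1 and Cdc45 on the lower side.

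Sizes were modest. Differences of experiment 3 from experiment 1 ran from -0.39 to 0.18 (median -0.05, beside -0.05 over all genes), and those from experiment 2 ran from -0.41 to 0.23 (median -0.06, beside -0.03). All 34 intervals lay within 1.5-fold in both, as 61.5% and 61.3% of all genes did. The median absolute difference from experiment 1 was 0.10 for the members and 0.19 over all genes tested.

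Pold1 differed most. Its signals in experiment 3 were 1439 in the control and 1449 in GemKD, and those in experiments 1 and 2 were 1787 and 1848 in the controls and 2013 and 2003 in GemKD. Both arrays of experiment 3 were below the other 4. The log2 difference was -0.39 against experiment 1 and -0.41 against experiment 2 (SE 0.07, limma adjusted p = 6.29e-04 and 4.34e-04), 1.31-fold and 1.33-fold lower. Its second probe set had -0.15 and -0.11 and was not called (adjusted p = 0.228 and 0.405), and there the GemKD array of experiment 3, at 1570, lay among the others.

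Cdc45, the helicase cofactor that joins when an origin fires, had 704 and 671 in the control and GemKD arrays of experiment 3, and 875, 872, 930 and 814 in the others. It was lower by 0.39 and 0.29 on the log2 scale (SE 0.09, limma adjusted p = 0.00406 and 0.0229). Rpa1, the large subunit that coats single-stranded DNA, had 5356 and 5487 in experiment 3 and between 6357 and 6493 on the other 4 arrays. It was lower by 0.24 in both comparisons (SE 0.04, limma adjusted p = 5.60e-04 and 5.01e-04). Its second probe set gave -0.24 and -0.25 and was called in both in a fit over all probe sets. Of the members called in both comparisons, Rpa1 and Slbp also had a second probe set called the same way in each. The second probe set of Pola2 was called higher in each (0.56 and 0.54, limma adjusted p = 0.0322 and 0.0384), while its first had 0.02 and -0.04. Lig1 had 3021 and 3204 in experiment 3 and between 3601 and 3852 elsewhere, with -0.24 and -0.26 (SE 0.06, limma adjusted p = 0.0046 and 0.00312).

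Mcm2, Mcm6, Rfc5, Dbf4 and Slbp were called with differences of at most 0.22 in size. Mcm2, with 4137 and 4219 in experiment 3 and 4551 to 4940 elsewhere, had -0.14 and -0.18 against experiments 1 and 2 (SE 0.05, limma adjusted p = 0.0475 and 0.0148). Mcm6 had -0.17 and -0.16 (SE 0.04, limma adjusted p = 0.00524 and 0.00855). The other 4 ring subunits were not called, with values between -0.09 and 0.03. Mcm6 signals were 5897 and 5925 in experiment 3 and between 6545 and 6710 on the other 4 arrays, so the groups did not overlap. Rfc5 had -0.18 and -0.22 (SE 0.05, limma adjusted p = 0.00884 and 0.00257), with 4148 and 4171 beside 4704 to 4975. Dbf4, with 4112 and 4464 beside 4680 to 5035, had -0.14 and -0.22 (SE 0.05, limma adjusted p = 0.0422 and 0.00443), but its mean over all probe sets gave 0.02 against experiment 1. Slbp was the 1 member called higher, at 4677 and 4929 in experiment 3 and between 4275 and 4404 elsewhere (0.14 and 0.15, SE 0.05, limma adjusted p = 0.0476 and 0.0346). A second, dim probe set of Slbp had 163 and 168 in experiment 3 and 43.3 to 55.6 elsewhere, a difference of 1.57 and 1.41. Chaf1b was also higher on both arrays of experiment 3, at 1104 and 1078 beside 937 to 982, and was not called (adjusted p = 0.0965 and 0.0671). Both arrays of experiment 3 lay outside the other 4 for 19 of 34 members (55.9%, beside 50.7% of all genes). They lay below for 15 (44.1%, beside 31.0% of all genes) and above for 4 (11.8%, beside 19.7%).

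How firmly these calls hold depended on the array and the variance model. Against experiment 1 the count of 10 members became 2 without the GemKD array of experiment 1 (18.1% of all genes called) and 6 without its control array (17.6%). Against experiment 2 it became 3 without the control array of experiment 2 (16.8% of all genes). It was 6 in both comparisons where a gene was given by the mean over its probe sets (23.9% and 22.5% of all genes), and 1, Pold1, where the spread was not modelled on signal intensity (14.5% and 13.9%). With the mean over probe sets Cdc45 had -0.25 and -0.04 and Mcm6 -0.03 and -0.12 against experiments 1 and 2, none of them called. That mean takes in probe sets under the limit for testing. Cdc45 against experiment 2 was called under 9 of the 15 alternatives. With quantile normalization 6 members were called lower and 2 higher against experiment 1, and 8 lower and 3 higher against experiment 2. That was 23.5% and 32.4% of the members, beside 27.5% and 27.3% of all genes. Pold1 was called under each of the 15 alternatives in both comparisons, and Rpa1 under 14, the exception being the model without the intensity trend.

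Other markers moved with experiment 3. The summed signal of 8 neural progenitor markers was 7556 to 8117 in experiment 3 and 10309 to 10941 in experiments 1 and 2, with 4 called lower and 2 higher in both comparisons. That of 6 naive pluripotency markers was 2755 to 3138 beside 6632 to 8607, with 5 and 4 called lower, and that of 4 epiblast markers was 20339 to 20693 beside 13525 to 15675, with all 4 called higher in both. That of 7 mitotic markers was 23403 to 23433 beside 24700 to 25083, with 1 and 2 called lower. Trophoblast markers summed to 283 to 338 beside 197 to 239, and 7 fibroblast markers to 1712 and 1753 beside 1828 to 2059, with 4 called lower and 2 higher in both. Neuron markers summed to 1961 and 2118 beside 2021 to 2318, those of mesoderm to 565 and 600 beside 611 to 757, and those of endoderm to 249 and 255 beside 194 to 295. No marker was at 0, and Mixl1, Gsc, Afp and Elf5 were under the limit for testing. The part of these shifts in the members' differences was not tested, and in whole cultures fewer cells of a type and less RNA per cell cannot be told apart.

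Motif matches were set beside these differences as a description. Of the 8 members called lower in experiment 3 against both others, 3 had a window with an E2F-type match (Mcm6, Pold1 and Lig1), and of the 20 other members with a window 6 had one (Mcm3, Mcm5, Mcm7, Gins3, Pola1 and Rfc3). Mcm5, with 1 merged site at bases 98 to 109, differed by -0.01 and 0.03.

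Other genes of origin licensing and DNA synthesis were read from a list of 54, of which 53 were tested. In GemKD minus control none of them was called in limma without the block, and with it Gmnn alone was called. Beside Gmnn the largest differences were those of Rnaseh2c, a subunit of the nuclease that removes RNA from DNA (0.22, SE 0.08, limma adjusted p = 0.9998), the nucleotide hydrolase gene Samhd1 (-0.15, SE 0.18), the polymerase subunit gene Pold3 (0.12, SE 0.09) and the clamp loader gene Rfc1 (0.11, SE 0.08). Rnaseh2c had control signals of 1123, 1095 and 1252 and GemKD signals of 1371, 1301 and 1367, which did not overlap. Experiment 2 against experiment 1 called none. Its largest differences were Gmnn (0.36), the origin firing gene Ticrr (0.30), the methyltransferase gene Dnmt1 (0.14) and the thymidine kinase gene Tk1 (-0.13). Experiment 3 against experiment 1 called 8 higher and 13 lower of the 53 (beside 9.81% and 18.8% of all genes), and against experiment 2 it called 7 higher and 13 lower (beside 9.80% and 18.3%). Samhd1 was higher, by 0.51 and 0.38 (SE 0.08, limma adjusted p = 3.24e-04 and 0.00338), at 1142 and 996 beside 718 to 863. The other leading genes against experiment 1 were E2f2 (-0.43, not called), the histone chaperone gene Asf1b (-0.40, limma adjusted p = 0.00228) and the MCM binding protein gene Mcmbp (-0.38, adjusted p = 6.93e-04). Against experiment 2 they were the clamp loader gene Chtf18 (-0.40, limma adjusted p = 0.00755), the helicase gene Mcm9 (-0.35, not called) and the fork protein gene Wdhd1 (0.34, adjusted p = 0.00822).

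**Figure D4:**
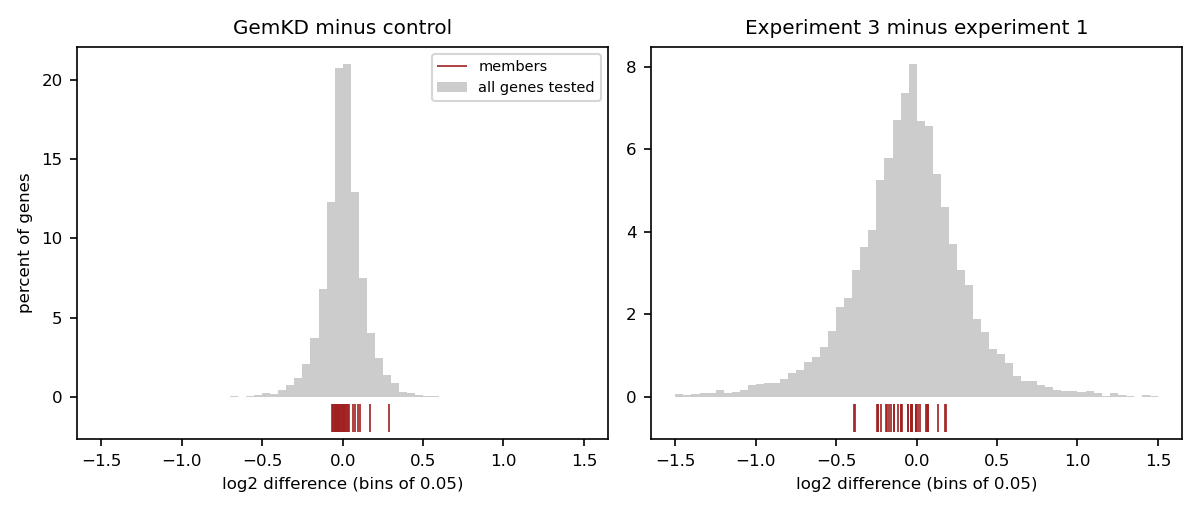
Grey bars give the percent of all 14185 tested genes per bin of 0.05 in log2 difference, and red ticks under the axis are the 34 members, for GemKD minus control and for experiment 3 minus experiment 1. The ticks lie between -0.06 and 0.29 on the left and between -0.39 and 0.18 on the right; genes beyond 1.5 on either side are not drawn.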

How the data were processed

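Biotin-labelled RNA of 3 GemKD and 3 control cultures went on Affymetrix arrays, per the labels. For 45037 probe sets the authors deposited 1 linear intensity per array. No label or header used here names the software, background correction or normalization. The columns lay on 1 scale and were used as deposited. Probe sets with 1 gene symbol in the platform annotation (34945; 932 had several and 9160 none) were kept, the brightest over the 6 arrays stood for a gene, and genes above the 30th percentile of all probe set means (20.1) were tested on log2(signal + 16). Symbols checked against RefSeq GRCm38.p6 changed in 0 cases.

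limma 3.58.1 in R 4.3.3 (lmFit, eBayes with an intensity trend, two-sided, adjusted p under 0.05) compared the arms without a block, the experiments in a fit with arm as a term, and the hairpins by an interaction. The labels state no test. Experiment numbers pair the arrays, since each experiment had its own control. Deviations from group means correlated within experiments 1, 2 and 3 with 0.489, 0.472 and 0.714. Across experiments 1 and 2 they correlated with 0.42 and 0.31, close to the values within them. Across experiment 3 and either of the others they correlated with -0.60 to -0.49. Because such deviations sum to 0 in each group, these values are not independent of each other. The fits were tested on data simulated with known changes and no other differences between experiments. There the fits of arms and experiments called most of the changed genes, and the interaction called none. The arrays do differ between experiments, so the simulation does not show what the fit of arms without a block can call in them. P-values of the fit of arms without a block measure the spread between cultures of an arm. Those of the fits with experiment as a term measure how far the difference between arms varied between experiments. No experiment had 2 cultures of 1 arm, so the spread between such cultures was not measured.

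The members and lists were chosen with earlier results of these data known. All 35 members were named. Values were given for called members or the largest differences, and for the 4 largest of the other replication genes in each comparison. Genes singled out for steadiness, second probe sets or motifs were chosen after their values were seen.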

Additional observations from a re-analysis of the deposited data

Results flagged for a closer look

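Gmnn, the hairpins' own target, is the 1 gene among the members and the other replication genes whose GemKD effect was called to differ between hairpins. The effect with shRNAmir #9 was 0.59 higher on the log2 scale than that with shRNAmir #11 (SE 0.13, limma adjusted p = 0.00227), and the GemKD signal was higher in experiment 2 (1669) than in experiments 1 and 3 (983 and 1270). Its log2 ratios were -1.84, -1.05 and -1.44 in experiments 1, 2 and 3, so experiments 1 and 3, both with shRNAmir #11, also differed. The call rests on the spread modelled on signal intensity. Without that model the same fit called 0 of 14185 genes, and so not Gmnn. shRNAmir #9 was used in 1 experiment, so hairpin, line and experiment cannot be told apart.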

How the results depend on the processing

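GemKD minus control called 0 of 34 members under every alternative run: quantile normalization, no filter, a filter at the 50th percentile, a pseudocount of 1 or 64, the mean of all probe sets, no probe sets ending in _x_at or _s_at, no intensity trend, the hairpin as a covariate, the replicate block, and leaving out each array or experiment (0 to 0). Of all genes tested, 0% to 0.0352% were called under these alternatives, so a count of 0 members was near the share of all genes. The 34 intervals within 1.5-fold remained 34 with the replicate block, and the median of the members lay between -0.02 and 0.01 when an experiment was left out. The block changed no call of a member. The hairpin interaction and experiment 2 minus experiment 1 called 0 members under each alternative run on them, where few of all genes were called. The 10 members called in experiment 3 minus experiment 1 became 6 with the mean of all probe sets (23.9% of all genes) and 1 without the intensity trend (14.5%), and 2 to 10 when an array was left out. The 10 in experiment 3 minus experiment 2 became 6 (22.5% of all genes), 1 (13.9% of all genes) and 3 to 11. Without the trend, bright genes no longer share a smaller expected spread. Dbf4 in experiment 3 minus experiment 1 turned to 0.023 with the mean of all probe sets (adjusted p = 0.871), where a dim second probe set counts as much as the first. Signs of members called neither here nor there were not compared.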

Other observations

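Over the 34 members, the SD of the log2 difference between 2 arrays was 0.08 to 0.12 for the arms of the same experiment, 0.05 to 0.12 between arrays of experiments 1 and 2, and 0.14 to 0.20 between an array of experiment 3 and any other. Over all genes tested the same ranges were 0.21 to 0.27, 0.21 to 0.25 and 0.41 to 0.44. The summed signal of the members was 104948 and 107296 in the control and GemKD arrays of experiment 3 and 110207 to 112005 on the others.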
